A study of Mus musculus with 16 samples.

Results

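Complex I, NADH:ubiquinone oxidoreductase, is the entry point of electrons from NADH into the mitochondrial respiratory chain. The 37 genes described here are the nuclear genes of its Nduf name series in mouse cerebral cortex. They were chosen by name alone, as every gene symbol made of Ndufa, Ndufb, Ndufc, Ndufs or Ndufv and a number, pseudogene entries left out, among 20436 genes listed for each library. The series covers 4 genotypes on one strain background, labelled FVB.129P2-/Pde6b+ Tyr c-ch //AntJ: wild type (WT), Fmr1 single KO, Cpeb1 single KO and Fmr1/Cpeb1 double KO. KO stands for knockout, and the labels name no Cre line or tissue driver. Fmr1 encodes FMRP, the RNA-binding protein lost in fragile X syndrome, and Cpeb1 encodes a cytoplasmic polyadenylation element binding protein. Cortex was taken at postnatal day 28 to 35, and a cytoplasmic lysate was divided between RNA-seq and ribosome profiling, which sequences the mRNA fragments covered by ribosomes (footprints). Each genotype had 2 libraries of each assay, 16 in all, numbered replicate 1 and 2. The labels do not say whether the replicates are separate animals, so the p-values measure the spread between these libraries, which may be technical.

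Complex I has a matrix arm, where NADH is oxidised and ubiquinone is reduced, and a membrane arm that pumps protons. Its catalytic core is made of nuclear-encoded subunits in the matrix arm and mitochondrially encoded subunits in the membrane. The accessory subunits surround that core and serve in assembly and stability. Neurons depend on oxidative phosphorylation for much of their ATP, and inherited complex I defects often appear as disease of the brain. The members were grouped by place: 7 core subunits of the matrix arm, 9 accessory subunits of the matrix arm, 9 accessory subunits of the proximal membrane arm and 10 of the distal membrane arm (the Ndufb genes). The 2 others are Ndufa4, a protein now assigned to cytochrome c oxidase (complex IV), and its paralog Ndufa4l2. The mitochondrially encoded subunits and Ndufb1-ps were not analysed here.

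RNA libraries held 5423919 to 10246479 estimated counts each, and footprint libraries 16239479 to 24973462. The targeted genes followed the labels in all 16 libraries. Fmr1 stood at 18.4 to 25.9 CPM (counts scaled to the size of the library) in RNA of the Fmr1 and double knockouts against 87.0 to 116 in the others, and Cpeb1 stood at 15.98 to 19.71 in those of the Cpeb1 and double knockouts against 27.6 to 43.9. Markers of neurons, astrocytes, oligodendrocytes, microglia, endothelium and pericytes were above 0 in every RNA library. In such bulk tissue, fewer cells of a type and less RNA per cell cannot be told apart.

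Most complex I subunit genes were expressed at similar levels per length in WT cortex, with Ndufa4 far above and Ndufa4l2 far below them. Levels of different genes were compared in TPM, a share of transcripts that accounts for length. Ndufa4 stood at 1042 and 1144 TPM in the 2 WT RNA libraries and at 2609 and 2665 TPM in WT footprints. That was 2.18 times the next member in RNA and 4.51 times the next in footprints. Ndufa4l2 stood at 1.93 and 1.16 TPM in WT RNA and at 5.89 and 4.70 in footprints. With Ndufa4 and Ndufa4l2 set aside, the remaining 35 members had a median of 271.1 TPM in WT RNA, and the highest was 4.08 times the lowest. In WT footprints their median was 300.8 TPM and the highest was 3.52 times the lowest. The SD of log2 TPM among these 35 was 0.391 to 0.532 in the 8 RNA libraries and 0.392 to 0.439 in the 8 footprint libraries.

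Among the core subunits in WT RNA, Ndufs8, an iron-sulfur subunit, was lowest at 206.7 ± 10.5 TPM (SD, n = 2), within the spread of Ndufs1 at 207.7 ± 13.1 TPM. In the accessory matrix arm, Ndufa6, an LYR-motif protein that holds the mitochondrial acyl carrier protein, led with 431.4 ± 79.2 TPM. The lowest there was Ndufs6, a zinc-binding subunit, with 207.6 and 155.3 TPM in the 2 WT libraries. In the proximal membrane arm, Ndufa13 led with 481.5 ± 17.7 TPM and Ndufs5, a subunit facing the intermembrane space, was lowest at 122.7 ± 46.8 TPM. In the distal membrane arm, Ndufb9, another LYR-motif protein, led with 500.6 ± 44.4 TPM, and Ndufb11 was lowest at 213.1 ± 9.65 TPM. Ndufb9, Ndufa13 and Ndufb8 (458.1 ± 46.0 TPM) do not differ beyond their spread. Ndufs5 differed between the 2 WT libraries themselves, with 155.8 and 89.58 TPM, while its footprints were at 166.2 and 166.6 TPM.

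The order in footprints was another one. Ndufc2 of the proximal membrane arm was highest after Ndufa4 with 585.2 ± 16.5 TPM, followed by Ndufb6 with 522.5 ± 1.66 and Ndufa1 with 495.4 ± 25.9 TPM. Across the 35 members, log2 TPM in WT RNA and in WT footprints had a Pearson correlation of 0.622, a description over genes that come from the same libraries. The footprint to RNA ratio in WT, on a log2 TPM scale, ran from −0.52 for Ndufb9 to 1.27 for Ndufa4 among the 36 members kept by the count filters of both assays. Its median was 0.19 over the members and −0.63 over 13019 genes tested, and all 36 members lay above the median of all genes. TPM are scaled within each library, so a ratio of 0 does not mark equal amounts. Of the 35 members, 21 had more footprint than RNA TPM in both WT replicates and 9 had less in both. Short coding sequences had the higher ratios: the Pearson correlation of log2 coding length with the log2 ratio was −0.58 over the 35 members. Their footprint lengths are 57 nt shorter than their RNA lengths, except for Ndufv2 (673.84 against 744 nt) and Ndufv3 (296.37 against 369.02 nt). This shortening weighs most on the shortest members, so the ratio and the length share a term. The members' median coding length is 429 nt, and the comparison with the median of all genes was not matched for length.

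**Figure D1:**
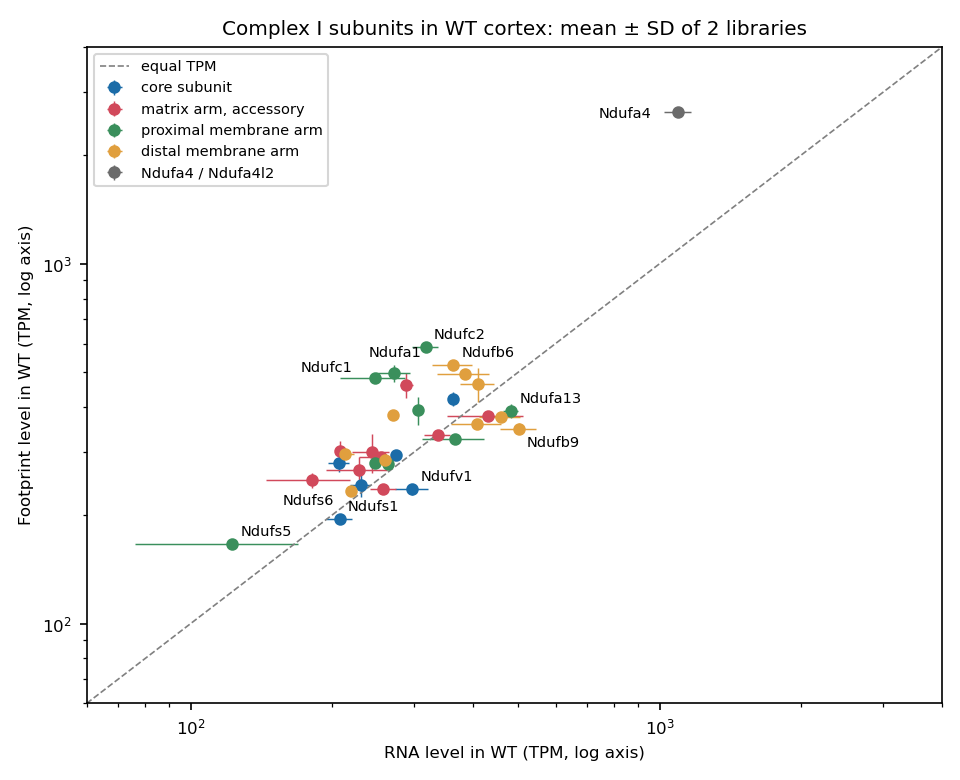
Each point is 1 of 35 members at its mean TPM in WT RNA (horizontal, log axis) and WT footprints (vertical, log axis), with SD of 2 libraries as bars, coloured by place in the complex. Ndufa4, at 1093 and 2637 TPM, stands apart from the rest, and Ndufs5 is the lowest point.

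RNA levels of the members varied more between libraries than their footprints. The coefficient of variation of CPM over the 8 libraries of an assay had a median of 11.9% over 36 members in RNA and 6.71% in footprints, and it was larger in RNA for 35 of the 36. Counting error alone would give a median of 3.79% and 1.90%, since the RNA libraries are shallower. Ndufs5 varied most in RNA (35.1%), with 97 to 304 counts per library. Much of the RNA variation was shared by the members and followed single libraries. Replicate 1 of the Cpeb1 knockout held the highest RNA value of 20 of 36 members, and replicate 1 of the double knockout held the lowest of 25 of 36. The summed level of the 37 members ran from 3722 CPM in replicate 1 of the double knockout to 4842 CPM in replicate 1 of the Cpeb1 knockout. The summed footprints ran only from 5240 to 5565 CPM.

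**Figure D2:**
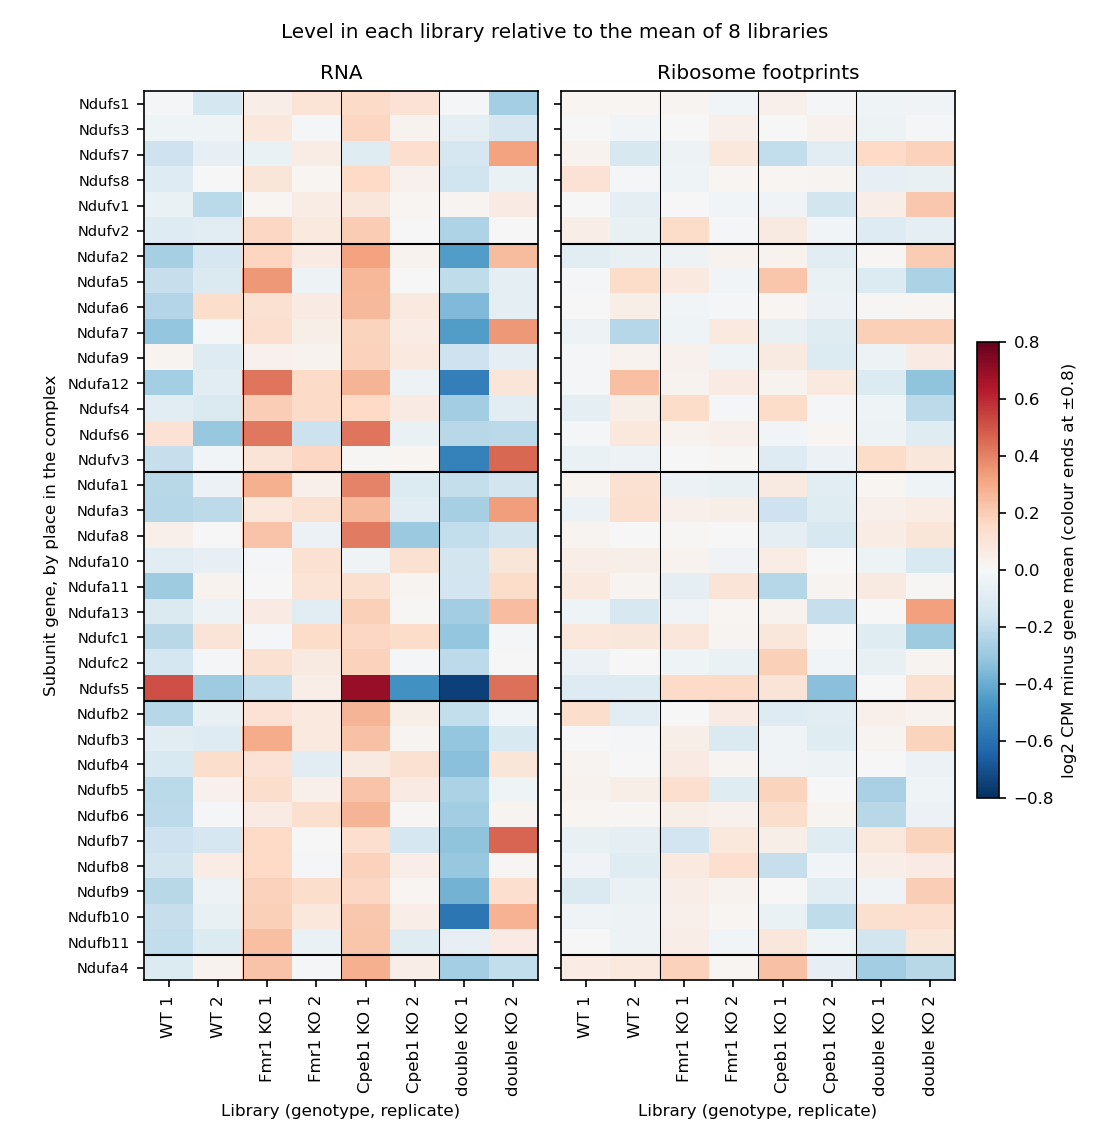
Colour gives log2 CPM of 35 members (rows, grouped by place in the complex) in each library (columns, 2 per genotype) minus the gene's mean over 8 libraries, for RNA (left) and footprints (right). In RNA, replicate 1 of the Fmr1 and Cpeb1 knockouts is red and replicate 1 of the double knockout blue over most rows, while the footprint panel is paler.

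A property of whole libraries moved with the summed RNA level. The mean coding length per count, taken over all genes other than the members, was longest in replicate 1 of the double knockout at 3003 nt and shortest in replicate 1 of the Cpeb1 knockout at 2735 nt. Replicate 1 of WT, the library with the next lowest summed level (3964 CPM), had the next longest mean, 2983 nt. Replicate 1 of the Fmr1 knockout, with the next highest sum (4654 CPM), had the next shortest, 2769 nt. The other 4 RNA libraries lay between, with 2782 to 2905 nt and 4085 to 4427 CPM. The members are short, with a median coding length of 429 nt. In footprints the same mean spanned only 2092 to 2138 nt. The part of this length shift in the RNA results was examined through a fit with a length offset. The members' RNA changes were also correlated with their coding length, and nothing further was tested.

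**Figure D3:**
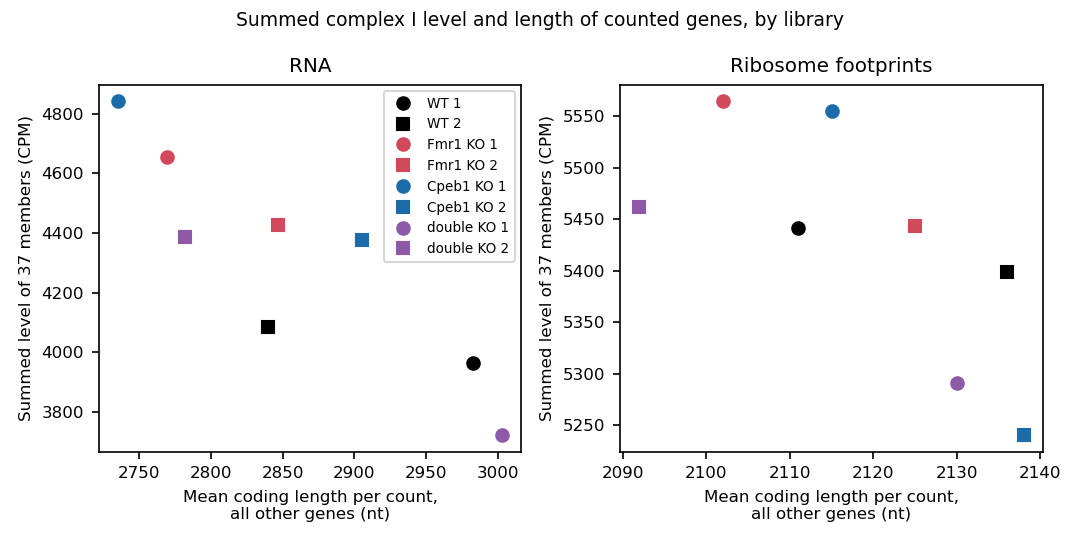
Summed CPM of the 37 members (vertical; the axes do not start at 0) against the mean coding length per count of all other genes (horizontal, nt), 1 point per library, colour for genotype, circles for replicate 1 and squares for replicate 2. In RNA the libraries run from 2735 nt and 4842 CPM to 3003 nt and 3722 CPM, and the 2 double knockout libraries lie far apart.

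In RNA, complex I subunit genes leaned higher in each single knockout than in WT, and no gene among them passed the test. The fitted log2 change was above 0 for 35 of 36 members in the Fmr1 knockout, with a median of 0.18, and for 36 of 36 in the Cpeb1 knockout, with a median of 0.21. The medians over all 13287 genes tested were 0.02 in both. With the length offset 30 of 36 members were above 0 in the Fmr1 knockout (median 0.10) and 32 of 36 in the Cpeb1 knockout (median 0.12). Taken by replicate number, the Fmr1 knockout median was 0.28 in replicate 1 (35 of 36 above 0) and 0.13 in replicate 2 (30 of 36). The Cpeb1 knockout median was 0.33 in replicate 1 (36 of 36) and only 0.05 in replicate 2 (28 of 36). The Fmr1 knockout called 0 members with edgeR's quasi-likelihood test at an adjusted p under 0.05 (Benjamini-Hochberg over all genes), 2 had an unadjusted p under 0.05 (5.56%, against 8.09% of all genes), and DESeq2 called 0. Of all genes, 0.00753% were called there. The Cpeb1 knockout called 0 members, 1 had an unadjusted p under 0.05, and DESeq2 called 0; of all genes edgeR called 0 (0%), with 1455 at an unadjusted p under 0.05 and 45 called by DESeq2. In the double knockout against WT, 16 members were above 0 and 20 below, with a median of −0.02 (all genes −0.0018). There edgeR and DESeq2 each called 0 members, 0 had an unadjusted p under 0.05, and 0.00753% of all genes were called. Without replicate 1 of the double knockout that median was 0.12, and without replicate 2 it was −0.17. These 3 comparisons share the WT libraries.

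Ndufa12, a matrix-arm subunit next to the NADH-oxidising end, had the largest fitted value of the Fmr1 knockout, 0.49 ± 0.20 (SE; adjusted p = 0.599, edgeR). It was called in the fit of those 2 genotypes alone, where 1 of 36 members (2.78%) and 3.05% of all genes were called. The lowest value there was that of Ndufs5, −0.26 ± 0.41 (adjusted p = 0.857, edgeR). In the Cpeb1 knockout Ndufa2, another matrix-arm subunit, was highest with 0.39 ± 0.20 (adjusted p = 0.485, edgeR).

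The submitters also set both single knockouts as one group of 4 RNA libraries against WT and the double knockout as the other, and in that comparison 2 subunits rose: Ndufs4 and Ndufb3. Ndufs4 is a late-assembling matrix-arm subunit whose loss causes Leigh syndrome, and Ndufb3 is a distal membrane-arm subunit. Ndufs4 lay at the median of its group and Ndufb3 was the largest of its own. The 2 calls are 5.56% of 36 members, while 7.31% of all genes were called in this comparison (295 of 971 of them higher, 2.22% of genes tested), so the share is near the background. With a length offset 706 of 1485 calls were higher (47.5%, against 30.4%). The pattern across the members is in direction: the fitted change was above 0 for 36 of 36, against 7265 of 13287 genes tested. Their median was 0.20 (a fold of 1.15), with a range of 0.0046 to 0.41, against a median of 0.03 over all genes. By replicate number, 36 of 36 were above 0 in replicate 1 and 22 of 36 in replicate 2. With DESeq2 or its size factors 35 of 36 were above 0, and with the length offset 29 of 36, with a median of 0.10.

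Ndufs4 stood at 71.33 and 69.82 CPM in WT RNA and at 62.42 and 71.26 CPM in the double knockout. Fmr1 knockout libraries had 86.88 and 84.28 CPM and Cpeb1 knockout libraries 84.81 and 79.29 CPM. All 4 single-knockout libraries were above the other 4, and the log2 change was 0.29 ± 0.08 (SE; adjusted p = 0.0419, edgeR; 0.0342 to 0.188 over the alternatives). Ndufb3 stood at 51.92 and 51.42 CPM in WT and at 44.51 and 50.74 CPM in the double knockout. Fmr1 knockout libraries had 67.72 and 58.27 CPM and Cpeb1 knockout libraries 64.83 and 56.01 CPM. Its groups did not overlap either, with a log2 change of 0.32 ± 0.09 (adjusted p = 0.0479, edgeR; 0.0400 to 0.208 over the alternatives). With the length offset the values were 0.19 for Ndufs4 and 0.16 for Ndufb3, neither called, and without the replicate block the adjusted p was 0.0748 and 0.0786. The count of 2 became 0 without replicate 1 of any genotype or replicate 2 of the Fmr1 knockout. It became 5 without replicate 2 of WT, where 539 of all genes were called higher and 739 lower. Without replicate 2 of the Cpeb1 knockout it was 4, with 296 of all genes higher and 677 lower. In the main fit 295 were higher and 676 lower. The count was 11 (30.6%) without replicate 2 of the double knockout, where 10.5% of all genes were called.

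An unadjusted p under 0.05 was found for 19 of 36 members (52.8%) and for 25.7% of all genes; counts of 3 of 9 or 2 of 7 in a place are near that share. The accessory subunits of the matrix arm had the highest median of the places, 0.29, with 1 of 9 called and 7 of 9 at an unadjusted p under 0.05. Ndufa12 had the largest fitted change there, 0.41 ± 0.13 (adjusted p = 0.0614, edgeR). WT had 64.73 and 73.61 CPM and the double knockout 53.71 and 83.67 CPM, while the Fmr1 knockout had 105.2 and 87.24 CPM and the Cpeb1 knockout 94.74 and 76.03 CPM. Its groups overlapped through replicate 2 of the double knockout. The smallest change in that group was that of Ndufv3, 0.13 ± 0.13 (adjusted p = 0.543, edgeR).

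The 10 distal membrane-arm subunits had a median of 0.24, with Ndufb3 called and 6 of 10 at an unadjusted p under 0.05. The smallest was Ndufb7, a protein facing the intermembrane space, with 0.07 ± 0.14 (adjusted p = 0.793, edgeR). The 9 proximal membrane-arm subunits had a median of 0.16 and 3 at an unadjusted p under 0.05, from Ndufa1 at 0.32 ± 0.11 (adjusted p = 0.0791) to Ndufs5 at 0.0046 ± 0.26 (adjusted p = 0.995, both edgeR). Ndufs5 showed no order by genotype: WT had 30.41 and 17.50 CPM, the Fmr1 knockout 18.66 and 22.12, the Cpeb1 knockout 34.47 and 15.21, and the double knockout 12.70 and 28.95.

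The 7 core subunits had the lowest median of the places, 0.14, with 2 at an unadjusted p under 0.05. Ndufv2, an iron-sulfur subunit, was highest with 0.22 ± 0.08 (adjusted p = 0.0902, edgeR). Ndufs7, which carries the iron-sulfur cluster that passes electrons to ubiquinone, was lowest with 0.02 ± 0.09 (adjusted p = 0.924, edgeR). The difference between the places was not tested, and the places differ in length. Median coding length was 789 nt for the core and 369 nt for the accessory matrix arm. It was 360 nt for the proximal and 432 nt for the distal membrane arm. Over 35 members, log2 coding length and the pooled RNA change had a Pearson correlation of −0.32. Ndufa4 had 0.28 ± 0.09 (adjusted p = 0.0679, edgeR). Ndufa4l2 had 0 to 4 counts per RNA library and was not tested.

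**Figure D4:**
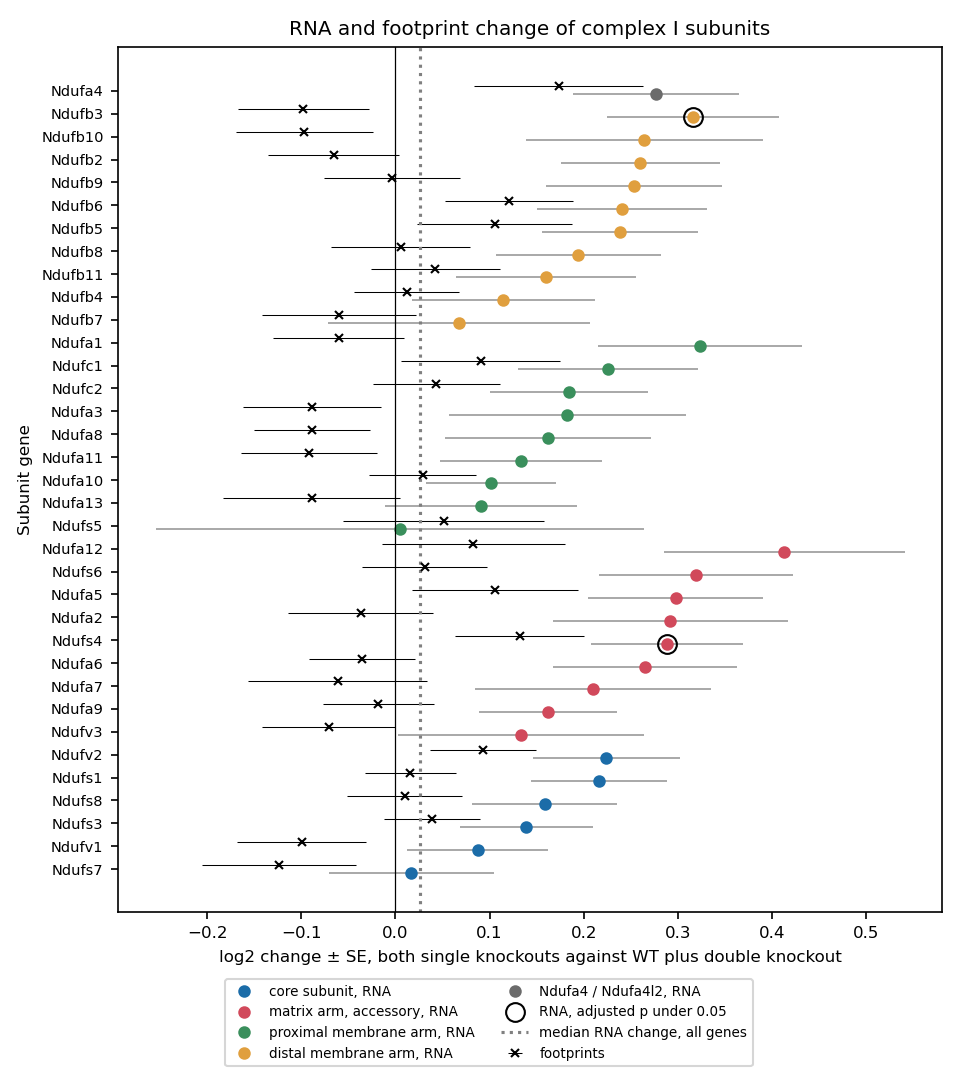
Fitted log2 change with SE (horizontal) of both single knockouts against WT plus double knockout for 35 members (vertical), RNA as coloured circles and footprints as crosses. Every RNA circle lies at or above 0, from 0.0046 to 0.41, with Ndufs4 and Ndufb3 ringed as called, and the footprint crosses fall on both sides of 0.

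Levels without overlap between the groups of 4 RNA libraries were found for 10 of 36 members (27.8%), each higher in the single knockouts, and for 0 in the other direction. Of all 13287 genes tested, 6.04% were higher without overlap in the single knockouts and 6.12% lower. The 10 were Ndufa5, Ndufa9, Ndufb2, Ndufb3, Ndufb5, Ndufs1, Ndufs3, Ndufs4, Ndufs8 and Ndufv2, which include 4 of the 7 core subunits. The members are not independent of each other, since the same libraries carry all of them. Split by replicate number, the members' median log2 change was 0.39 in replicate 1, above 0 for 36 of 36, and 0.05 in replicate 2, above 0 for 22 of 36. The same comparison fitted with 4 separate genotypes, which is the test of whether the 2 losses combine additively on the log2 scale, called 274 genes and 0 members with edgeR (15 at an unadjusted p under 0.05).

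Most genes of some marker lists leaned one way in the same comparison, and 1 marker was called. Of 6 neuronal markers 5 had a change below 0 (median −0.12, 0 called). An unadjusted p under 0.05 was found for 3 of the 6 and for 25.7% of all genes. Their summed RNA level was 3617 to 4005 CPM in the single knockouts against 4001 to 4295 CPM in the others, a slight overlap. All 6 astrocyte markers were above 0 (median 0.14), and 1 was called, where 7.31% of all genes were called. Their sums overlapped, with 814.7 to 945.2 against 713.2 to 857.5 CPM. Of 6 microglia markers 5 were above 0 (median 0.34, 0 called), again with overlapping sums of 32.89 to 50.22 against 25.11 to 42.79 CPM. Of 6 oligodendrocyte markers 5 were below 0 (median −0.04, 0 called). Of 4 endothelial markers tested 3 were above 0, and of 4 pericyte markers 2 (0 called in either). No marker of these lists was at 0 in an RNA library. Their part in the members' RNA levels was not tested.

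The promoters of the 2 called subunits, of the member with the largest fitted change (Ndufa12) and of the one that varied most (Ndufs5) are shown because they differ in known motifs of mitochondrial gene control. Each is the 250 bases before the RefSeq start (GRCm38.p6), 5′ to 3′ on the gene's strand, and capitals mark matches to the 3 motifs searched. They lie at chr13:114388095-114388344 (minus strand) for Ndufs4, chr1:58586147-58586396 (plus) for Ndufb3, chr10:94198785-94199034 (plus) for Ndufa12 and chr4:123718187-123718436 (minus) for Ndufs5.
Ndufs4: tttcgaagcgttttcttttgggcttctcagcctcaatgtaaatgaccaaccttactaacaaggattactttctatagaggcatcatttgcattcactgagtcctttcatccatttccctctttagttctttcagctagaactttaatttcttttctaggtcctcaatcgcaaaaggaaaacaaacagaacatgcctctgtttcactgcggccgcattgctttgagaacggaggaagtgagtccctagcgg
Ndufb3: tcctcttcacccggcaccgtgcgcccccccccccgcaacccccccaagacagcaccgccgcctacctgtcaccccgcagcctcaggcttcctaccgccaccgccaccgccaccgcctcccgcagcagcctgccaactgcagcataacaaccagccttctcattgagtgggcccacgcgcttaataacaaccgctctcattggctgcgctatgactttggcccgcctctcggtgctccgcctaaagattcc
Ndufa12: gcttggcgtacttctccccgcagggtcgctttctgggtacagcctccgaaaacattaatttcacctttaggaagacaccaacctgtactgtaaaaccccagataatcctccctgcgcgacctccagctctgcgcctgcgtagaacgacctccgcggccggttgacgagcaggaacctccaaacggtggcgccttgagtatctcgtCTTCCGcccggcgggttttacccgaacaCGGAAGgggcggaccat
Ndufs5: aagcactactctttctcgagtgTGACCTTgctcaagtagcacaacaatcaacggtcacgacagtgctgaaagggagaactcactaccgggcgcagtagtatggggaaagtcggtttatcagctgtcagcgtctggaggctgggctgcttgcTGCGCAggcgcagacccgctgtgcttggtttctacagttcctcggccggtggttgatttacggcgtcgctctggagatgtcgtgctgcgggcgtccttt

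Neither Ndufs4 nor Ndufb3 holds any of the 3 motifs in the window searched, which adds 50 bases after the start. This is not particular to them, since other members, among them Ndufa4, Ndufs7, Ndufv1 and Ndufv2, also hold none of the 3. Ndufa12 holds the ETS motif CGGAAG, bound by factors such as GABP, once on each strand. Ndufs5 holds 1 NRF1 core, TGCGCA, and on the other strand 1 ERR motif, AAGGTCA. Promoters were listed for 32 of the 37 members. The NRF1 core was in 10 of the 32 (31.2%), against 8.06% of 27025 promoters of all genes, on either strand. The ETS motif was in 7 (21.9%, against 17.2%) and the ERR motif in 3 (9.38%, against 4.66%). The member promoters were richer in G and C, with a median of 59.0% against 52.7%, and the NRF1 core is itself rich in them. A match is a run of letters and no measurement of binding.

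Footprints of complex I subunits showed no common direction in the pooled comparison. Fitted log2 changes were above 0 for 19 of 37 members and below 0 for 18, with a median of 0.0054 (all genes 0.00063). EdgeR called 0 members, 0 had an unadjusted p under 0.05, and DESeq2 called 0. Of all 13774 genes edgeR also called 0 (0%), with 957 at an unadjusted p under 0.05 and 4 called by DESeq2. Ndufs4 had 0.13 ± 0.07 (adjusted p = 0.724) and Ndufb3 −0.10 ± 0.07 (adjusted p = 0.762, both edgeR). Footprint levels did not overlap for 2 members (5.41%), Ndufb6 and Ndufs3, both higher in the single knockouts, against 1.92% of all genes.

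Against WT, the Fmr1 knockout called 0 members in footprints (DESeq2 0), where edgeR called 0.0581% of all genes. Of the 37 members 2 had an unadjusted p under 0.05 there, against 5.09% of all genes. The Cpeb1 knockout called 0 (0 at an unadjusted p under 0.05, DESeq2 0), where 0.0799% of all genes were called. The median changes of the 37 members were 0.02 and −0.03.

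In the double knockout, single members moved in opposite directions in footprints. Compared with the Cpeb1 knockout, Ndufa4 fell and Ndufs7 rose, 2 of 37 members (5.41%), near the 5.6% of all genes called. Ndufa4 footprints stood at 320.0 and 332.8 CPM in the double knockout and at 457.7 and 370.8 CPM in the Cpeb1 knockout. WT libraries had 404.3 and 410.8 CPM and Fmr1 knockout libraries 440.8 and 392.0 CPM, so both double-knockout libraries were below the other 6. The log2 change against the Cpeb1 knockout was −0.34 ± 0.09 (adjusted p = 0.0416, edgeR; 0.0127 to 0.489 over the alternatives). Ndufs7 footprints stood at 157.9 and 160.6 CPM in the double knockout and at 123.7 and 133.0 CPM in the Cpeb1 knockout. WT libraries had 144.4 and 129.7 CPM and Fmr1 knockout libraries 137.3 and 149.9 CPM, again all on one side of the double knockout. The change was 0.31 ± 0.08 (adjusted p = 0.0499, edgeR; 0.0102 to 0.447 over the alternatives).

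Neither gene was called when the replicate block was dropped (adjusted p = 0.0819 and 0.0772, edgeR), nor without replicate 2 of the Fmr1 knockout or either replicate of the Cpeb1 or double knockout. Ndufs7 was also lost without replicate 1 of the Fmr1 knockout, and the count was 6 (16.2%) without either WT library, where 14.2% of all genes were called. With the length offset Ndufa4 was called and Ndufs7 was not. The change of Ndufa4 was −0.20 without replicate 1 of the Cpeb1 knockout. In RNA, Ndufa4 was at 135.4 and 142.7 CPM in the double knockout, below the 151.5 to 199.4 CPM of the other 6 libraries. Ndufs7 RNA was at 99.91 and 137.3 CPM in the double knockout and overlapped the other genotypes.

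**Figure D5:**
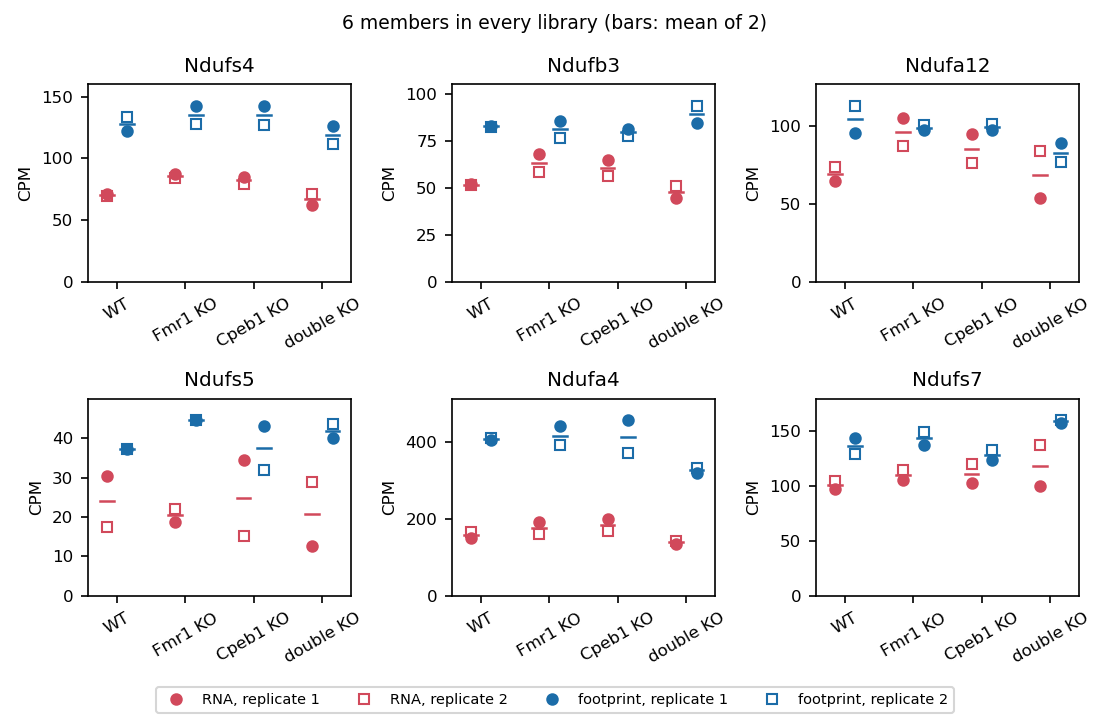
CPM (vertical, from 0) of 6 members in every library by genotype (horizontal), RNA in red and footprints in blue, filled circles for replicate 1, open squares for replicate 2 and a bar at the mean of 2. Ndufs4 and Ndufb3 RNA are higher in both single knockouts, and Ndufa4 footprints, at 320.0 and 332.8 CPM, are lowest in the double knockout.

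With WT as the reference, edgeR called 0 of 37 members in footprints of the double knockout, where 2.65% of all genes were called. An unadjusted p under 0.05 was found for 8 members (21.6%), 4 higher and 4 lower, and for 21% of all genes, so the share is that of the background. DESeq2 called 1 member, Ndufa4, and of all genes 274 higher and 210 lower. Ndufa4 had −0.32 ± 0.09 (adjusted p = 0.0671) and Ndufa12 −0.33 ± 0.10 (adjusted p = 0.0947, both edgeR). Ndufa7, another matrix-arm subunit, had 0.32 ± 0.09 (adjusted p = 0.0774, edgeR). Without replicate 1 of WT 6 members were called (16.2%), 4 lower and 2 higher, where 1318 of all genes were called (9.44%), in place of 365. Against the Fmr1 knockout, edgeR called 0 members and 0.334% of all genes. Of the members 4 had an unadjusted p under 0.05 (10.8%, against 15.9% of all genes), each lower. DESeq2 called 1 member there, Ndufa4, and of all genes 103 higher and 99 lower. Ndufa4 had −0.35 ± 0.09 there (adjusted p = 0.0962, edgeR), and was called without either WT library, where 1 of 37 members (2.7%) and 3.89% or 3.88% of all genes were called. These 3 comparisons share the double-knockout libraries.

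Translational efficiency, or footprints per RNA, leaned lower in the single knockouts, and no member passed the test. In the pooled comparison 35 of 36 members had a log2 change below 0, against 6255 of 13027 genes tested. The members' median was −0.15 against 0.01 over all genes, and the length offset gave −0.07 with 28 of 36 below 0. EdgeR called 0 members (4 at an unadjusted p under 0.05, each lower, 11.1% against 14.1% of all genes; DESeq2 0), where 0.0154% of all genes were called. Ndufb3 had the lowest value, −0.38 ± 0.12 (adjusted p = 0.167, edgeR). Without replicate 2 of the double knockout 3 members were called (8.33%), Ndufa12, Ndufb10 and Ndufv3, each lower. In that fit 353 of all genes were called (2.64%), in place of 2. The RNA values that gave the higher RNA levels also enter this ratio, so it is no separate observation.

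In the Fmr1 knockout against WT, 32 of 36 members were below 0 (median −0.16). With the length offset 26 of 36 were below 0 (median −0.08). EdgeR called 0 members (DESeq2 0) and 0.0154% of all genes. Among the members 2 had an unadjusted p under 0.05, and among all 13027 genes tested 1027. In the Cpeb1 knockout 36 of 36 were below 0 (median −0.17; 31 of 36 and −0.11 with the length offset), and 0 were called (2 at an unadjusted p under 0.05, DESeq2 0). EdgeR called 0 of all genes there (0%), with 1224 at an unadjusted p under 0.05 and 17 called by DESeq2. In the double knockout 19 were below 0 (median −0.01), 0 were called (0 at an unadjusted p under 0.05, DESeq2 0), and 0.00768% of all genes were called.

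Among other genes of complex I, Ndufab1, the mitochondrial acyl carrier protein that is also a subunit, had 0.28 ± 0.09 in the pooled comparison (adjusted p = 0.0699, edgeR). Of 15 assembly factors 13 had a change above 0, with a median of 0.10 against 0.20 for the members. An unadjusted p under 0.05 was found for 3 of 15, against 25.7% of all genes. Of the 15, 1 was called and rose, where 7.31% of all genes were called. That was Tmem126b, a membrane protein of the assembly complex that builds the membrane arm, with 0.46 ± 0.11 (adjusted p = 0.0219, edgeR; 0.0113 to 0.0860 over the alternatives). Tmem126b was not called without the replicate block (adjusted p = 0.0635, edgeR), without replicate 1 of any genotype and without replicate 2 of the Fmr1 knockout. Its call held in 8 of 15 alternatives. The lowest was Tmem186 with −0.10 ± 0.16 (adjusted p = 0.721, edgeR).

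In footprints 2 assembly factors fell, 1 of 15 in each of 2 comparisons, where 2.65% (against WT) and 5.6% (against the Cpeb1 knockout) of all genes were called. Ndufaf1, a partner of Tmem126b, had −0.55 ± 0.10 in the double knockout against WT (adjusted p = 0.0241, edgeR; 0.0045 to 0.161 over the alternatives). That call was lost without the replicate block, without replicate 2 of WT and without any 1 library of the Cpeb1 or double knockout. It held in 8 of 15 alternatives. Ndufaf4 had −0.49 ± 0.13 against the Cpeb1 knockout (adjusted p = 0.0483, edgeR; 0.0124 to 0.395 over the alternatives). It was lost with DESeq2, without the replicate block, without replicate 2 of the Fmr1 knockout and without any 1 library of the Cpeb1 or double knockout, and its change was −0.29 without replicate 1 of the double knockout.

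The authors' deposited table of the pooled RNA comparison calls 7 of 36 members, each higher in the single knockouts: Ndufa12, Ndufa4, Ndufa5, Ndufb2, Ndufb3, Ndufs4 and Ndufv2. The same authors' deposited table calls 13.6% of all genes with an adjusted p. For footprints of the double knockout, the authors' deposited tables call 5 of 36 members against the Cpeb1 knockout (13.5% of all genes), 3 against WT (8.26%) and 1, Ndufa4, against the Fmr1 knockout (4.39%). The authors' deposited table of translational efficiency calls 1 member in the Fmr1 knockout, Ndufa12, with a log2 change of −0.45 (adjusted p = 0.00298), where 2.96% of all genes are called.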

How the data were processed

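RNA-seq and ribosome profiling libraries of mouse cortex (2 per genotype and assay) were analysed from the deposited gene tables. Per the submitters' processing notes the authors used cutadapt, Bowtie2, TopHat2 and RSEM with build mm10; versions are not given in the sources used here. Per the file headers the authors deposited, per gene, expected counts, TPM scaled within each library, and lengths. Of genes with a single transcript, 99.6% had lengths that are multiples of 3, so these are coding lengths. How reads shared with pseudogene copies were divided was not checked here. The authors' deposited comparison tables hold log2 changes and p-values from DESeq2 and Xtail, per the series' design text.

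Expected counts were rounded and tested in edgeR 4.0.16 (R 4.3.3; TMM scaling, filterByExpr with a minimum count of 10, quasi-likelihood test, Benjamini-Hochberg over all genes, threshold 0.05), with replicate number as a block. All 8 libraries of an assay, or all 16 for translational efficiency (interaction of assay and genotype), entered each fit. The filter kept 36 of 37 members in RNA and 37 in footprints. The test was checked on simulated data. DESeq2 1.42.0, other scalings and filters, an offset for coding length, no block and leaving out each library were alternatives. Depth limits RNA more than footprints, with 97 counts for the lowest member tested in RNA. Promoter sequences came from RefSeq (GRCm38.p6). The members, lists and tests were chosen with earlier results of these data known. Values of 1 member are not reported by name here, and the counts include it. The other members may be named; given in full were those called and the extremes of each place in the complex.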

Additional observations from a re-analysis of the deposited data

How the results depend on the processing

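The labels state no pairing, and not every same-numbered pair of libraries deviated together: the correlation of their deviations ran from −0.05 to 0.31 over 6 pairs in RNA and from −0.10 to 0.40 in footprints. Without the replicate block 0 members were called in pooled RNA (380 genes in place of 971), and 0 in footprints of the double against the Cpeb1 knockout (207 genes in place of 772). DESeq2 itself called Ndufa12, Ndufb3 and Ndufs4 in pooled RNA (331 of all genes higher and 779 lower). It called Ndufa4, Ndufb10 and Ndufs7 in footprints of the double against the Cpeb1 knockout (480 of all genes higher and 351 lower). In pooled RNA edgeR called 0 members with 10 counts in every library and 0 with 4 genotypes in one fit (274 genes). It called 1 with DESeq2's size factors, 1 with the length offset (Ndufs1, 1485 genes), and 0 to 11 when leaving out single libraries. The Fmr1 knockout against WT in RNA called 1 with only the 2 genotypes. In footprints, the double knockout against WT called 1 with DESeq2 (274 of all genes higher and 210 lower). It called 1 with no filter (299 higher and 241 lower) and 1 with the length offset (247 higher and 186 lower). That count also moved when single libraries were left out. Against the Cpeb1 knockout the double knockout called 1 with the length offset (494 of all genes higher and 376 lower). With only the 2 genotypes it called 4 (976 higher and 725 lower). Against the Fmr1 knockout it called 1 with DESeq2 (103 higher and 99 lower) and 1 with no filter (92 higher and 73 lower). With only those 2 genotypes it called 1 (420 higher and 342 lower). Both counts also moved when single libraries were left out. The pooled translational efficiency called 0 to 3. Without single libraries, the members' median ran from −0.17 to 0.12 for the double knockout against WT in RNA and from −0.143 to 0.0859 in translational efficiency. In footprints it ran from 0.013 to 0.028 (Fmr1 knockout), −0.043 to 0.017 (Cpeb1 knockout) and −0.038 to 0.014 (double knockout) against WT, and from −0.051 to 0.041 for the double against the Fmr1 knockout. The median of pooled RNA stayed between 0.10 and 0.25 over the 15 alternatives. The SD of log2 TPM among members in WT fell from 1.37 to 0.46 in RNA and from 1.18 to 0.43 in footprints without Ndufa4 and Ndufa4l2. The median footprint to RNA ratio was 0.67 in CPM per kilobase, and 0.10 to 0.21 with 1 WT replicate. The cause of these shifts was not tested. RNA libraries were shallower than footprint libraries, and what size of change each depth could show was not tested beyond the simulated log2 change of 1.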

Other observations

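Of 10 regulators of mitochondrial gene expression, 2 changed in RNA between the single knockouts and WT plus double knockout, in opposite directions, where 7.31% of all genes were called. Tfam, which packages and transcribes mitochondrial DNA, rose by 0.39 ± 0.10 (SE, log2; adjusted p = 0.0371, edgeR; 0.0304 to 0.165 over the alternatives). Ppargc1b, a coactivator of mitochondrial biogenesis, fell by 0.42 ± 0.12 on the log2 scale (adjusted p = 0.0474, edgeR; 0.0115 to 0.195 over the alternatives). Tfam was not called without the replicate block, or without replicate 1 of any genotype or replicate 2 of the Fmr1 knockout. Its call held in 8 of 15 alternatives. Ppargc1b was not called without the replicate block, or without replicate 1 of any genotype or replicate 2 of WT or of the Cpeb1 knockout. Its call held in 7 of 15. Nrf1, whose protein binds the NRF1 core found in 31.2% of the member promoters, had 0.05 ± 0.11 (adjusted p = 0.794, edgeR).

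In footprints, where 2.65% of all genes were called in the double knockout against WT and 5.6% against the Cpeb1 knockout, 1 and 2 of the 10 were called. Esrra, which encodes the estrogen-related receptor alpha, rose in the double knockout by 0.46 ± 0.09 against WT (adjusted p = 0.0284, edgeR) and by 0.40 ± 0.09 against the Cpeb1 knockout (adjusted p = 0.0286, edgeR). Ppargc1b rose there by 0.48 ± 0.10 against the Cpeb1 knockout (adjusted p = 0.0249, edgeR). The 3 calls were lost when any 1 library of the double or Cpeb1 knockout was left out (adjusted p from 0.0549 to 0.371, edgeR), and that of Esrra against WT also without replicate 2 of WT. Without the replicate block Esrra had an adjusted p of 0.0519 in both comparisons (edgeR). Its call against WT held in 8 of 15 alternatives. Comparisons with the double knockout share its libraries.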
